A study of Mus musculus with 7 samples.

Results

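The genes described here are 46 members of the glutathione, thioredoxin and peroxide defence system of the mouse, taken by gene symbol from a table of 56691 genes. They cover the Nrf2 control genes, the quinone and epoxide enzymes, glutathione synthesis and recycling, the glutathione peroxidases with their microsomal relatives, the peroxiredoxins, the thioredoxins and glutaredoxins, and the superoxide dismutases with catalase. Messenger RNA was measured by bulk sequencing of poly(A)-selected libraries from whole liver of male C57BL/6J mice, bought at 8 weeks of age and kept for 2 weeks. The control group had 4 samples. The LPS group had 3 samples, taken 24 h after an intraperitoneal injection of lipopolysaccharide at 10 mg/kg, a component of the outer membrane of Gram-negative bacteria that sets off systemic inflammation and serves as a model of septic acute liver injury. The paper counts its sequenced groups as 4 and 3 mice, the numbers of libraries, so a sample is read as 1 mouse. What the control mice received is not given in the sources used here. The comparison asked which of these genes differed between LPS and control liver, by role and by the compartment in which each protein works.

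As background, hydrogen peroxide and lipid peroxides are reduced by glutathione peroxidases, which draw electrons from glutathione, and by peroxiredoxins, which draw them from thioredoxin. Both carriers are recharged by reductases that use NADPH, and glutathione itself is made in large amounts in hepatocytes, where glutamate-cysteine ligase sets the pace. The transcription factor Nrf2, held for degradation by Keap1, binds antioxidant response elements with small Maf proteins and drives many of these genes, while Bach1 occupies the same elements as a repressor.

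Total counts per sample ran from 14991022 in control replicate 1 to 20500391 in LPS replicate 1. Levels are given as CPM, a gene's counts per 1000000 counts of its library after edgeR's scaling, in the order of replicate number. The liver label was checked against 11 hepatocyte markers, all of them measured, led in level by Alb in the controls and LPS replicate 1 and by Fgb, a fibrinogen chain, in LPS replicates 2 and 3. Their summed level was 71558, 72243, 97158 and 84173 CPM in the controls and 65479.9, 78622 and 79146 CPM in the LPS samples, ranges that overlapped. That overlap rested on Fgb, which was higher after LPS: without it, a check chosen after seeing the data, the sums were 67514, 67385, 90636 and 78802 CPM in controls and 45505, 50163 and 49982 CPM in LPS samples. Every LPS sample was then below every control, and the part of this in the results was not tested. The control libraries fell into pairs: the SD of log2 ratios over abundant genes was 0.299 between control replicates 1 and 2 and 0.292 between control replicates 3 and 4, against 0.371 to 0.575 across these pairs. Mitochondrially encoded transcripts took 23.7% of counts in control replicate 1, 14.6% in control replicate 2, 7.48% in control replicate 3 and 8.96% in control replicate 4. In LPS replicates 1 to 3 their share was 6.45%, 3.83% and 3.94%. LPS replicates 2 and 3 were the most alike libraries, with an SD of 0.101. LPS replicate 1 stood at 0.313 and 0.309 from them. The test was refitted in 17 ways, 7 of which left out 1 library, and members and named pathway genes that lost their call in a refit are marked where they are described.

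Of the 46 members, 44 passed the filter on low counts and were tested, and 2 were not. Ggt1 and Gpx7 passed through the controls alone, and neither was called. Among the tested members, 4 were higher in LPS (9.09%) and 15 were lower (34.1%) at an adjusted p below 0.05 in edgeR's quasi-likelihood test, and 25 were not called. Over all 13683 genes tested, 1825 (13.3%) were higher and 1773 (13.0%) lower, 26.3% in all. With a log2 fold change beyond 1 as well, 1 member was higher and 9 were lower, against 7.81% of all genes higher and 7.31% lower. The median log2 fold change was -0.38 over the tested members and -0.01 over all genes tested. The higher members were Gpx3, Sod2, Glrx and Srxn1. All 19 called members had groups that did not overlap, and 3 members that were not called, Mgst1, Txnrd2 and Glrx2, had separate groups too. The share of all genes with separate groups was not counted, so nothing is read from these counts. Leaving out 1 library at a time, the count of higher members fell to 1 without LPS replicate 2, to 1 without LPS replicate 3 and to 2 without control replicate 4, and the count of lower members stayed between 11 and 16. Over all genes, calls lower in LPS numbered 1146 without LPS replicate 2 and 1159 without LPS replicate 3. Without scaling factors, 2 members were higher and 17 lower, with 1350 of all genes higher and 2057 lower. In whole liver, fewer cells of a type and less RNA per cell cannot be told apart for any of these genes.

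Summed over all 46 genes, the level was 18478, 18802, 20133 and 18105 CPM in control replicates 1 to 4. It was 12758, 13736 and 13507 CPM in LPS replicates 1 to 3, so every LPS sample lay under every control. The largest contributor in CPM was Mgst1 in control replicates 1 and 2 and Selenop in every other sample. Per kilobase of exon, the order of levels in the controls began with Mgst1 at 2570.3 ± 567 CPM per kb (SD, n = 4), followed by Selenop at 1547 ± 529, Cat at 1103 ± 62.4, Gpx1 at 588 ± 117 and Prdx1 at 357 ± 52.4. After LPS the order began with Mgst1 at 1779 ± 72.4 CPM per kb (SD, n = 3), then Selenop at 1421 ± 60.0, Cat at 469 ± 41.5, Prdx1 at 311 ± 41.3 and Gpx1 at 283 ± 55.9. The length used is the union of all annotated exons of a gene, which can exceed the expressed transcript. Both orders therefore hold on this scale only. Mgst1 and Selenop overlapped between control samples on this per-length scale. Prdx1 and Gpx1, neighbours in the LPS order, lay within each other's spread.

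**Figure D1:**
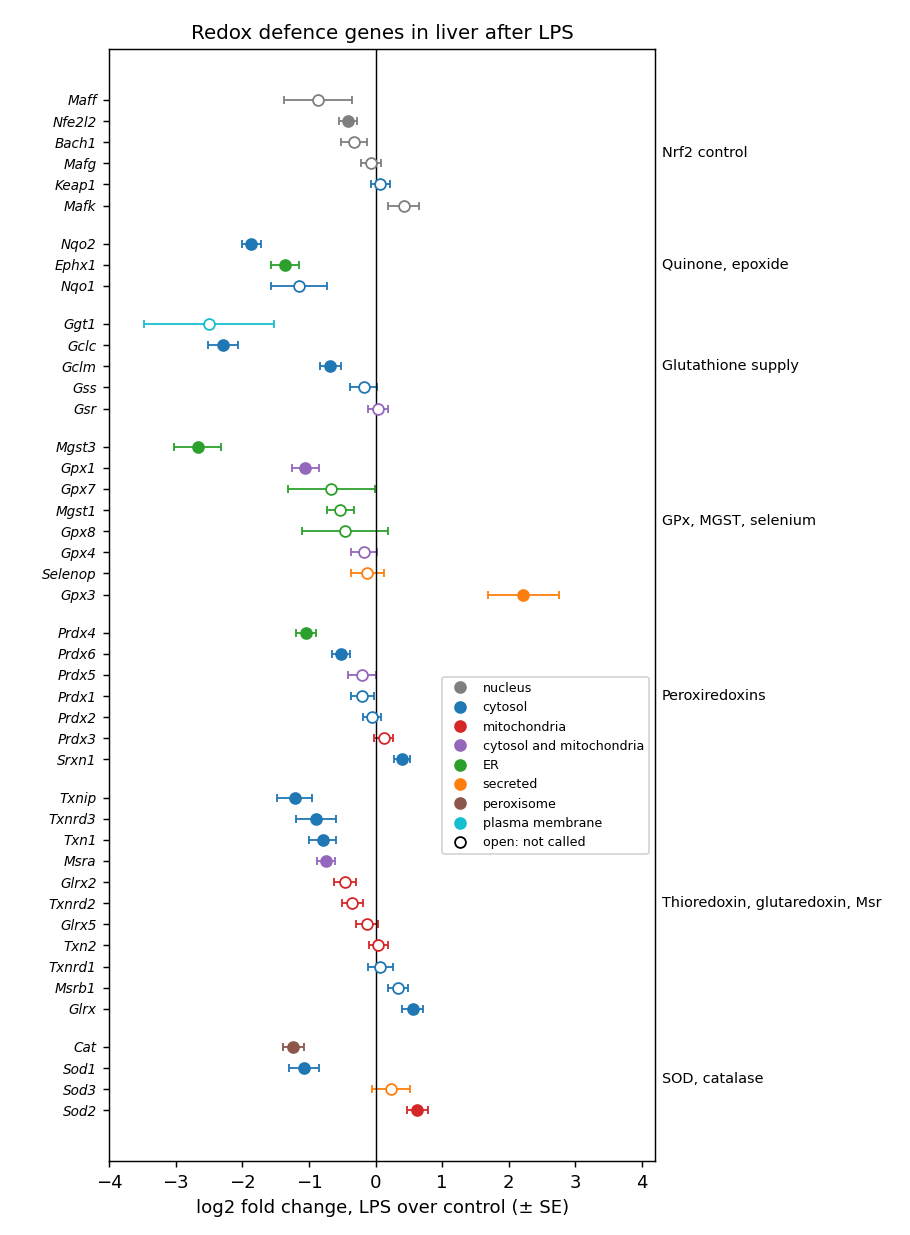
Log2 fold change of LPS over control, with its standard error, for the 44 tested members, grouped by role and coloured by compartment. Filled points were called at an adjusted p below 0.05, 15 of them to the left of 0 and 4 to the right.

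Among the 6 Nrf2 control genes, 1 was called lower and 5 were not called, and the median log2 fold change was -0.19. Over all genes tested, 13.0% were lower and 13.3% higher. Nfe2l2 (ENSMUSG00000015839), which encodes Nrf2, stood at 77.3, 69.9, 61.5 and 73.6 CPM in the controls and at 50.2, 54.4 and 54.9 CPM in the LPS samples. Every LPS sample was below the lowest control, replicate 3. The change was small (log2 fold change -0.41, SE 0.14, adjusted p = 0.0420). Its call rested on single libraries: of 7 fits that each left out 1 library, only the one without control replicate 3 kept it, and adjusted p ranged from 0.0173 to 0.127. In all, the call was kept in 7 of 17 refits, with adjusted p up to 0.127. Keap1 (ENSMUSG00000003308), the adaptor that marks Nrf2 for degradation, was at 30.1, 33.1, 33.4 and 33.5 CPM in controls and 38.6, 28.8 and 34.8 CPM after LPS. The groups overlapped, with LPS replicate 1 the highest and LPS replicate 2 the lowest of all 7 samples, and the gene was not called (log2 fold change 0.068, SE 0.14, adjusted p = 0.778). Its sign turned without scaling factors (log2 fold change -0.043). The repressor Bach1 and the small Maf genes Mafk, Mafg and Maff, partners of Nrf2 on DNA, had log2 fold changes from -0.86 for Maff to 0.42 for Mafk, and none was called. Without LPS replicate 1, Maff was called lower (log2 fold change -1.74, adjusted p = 0.0344). Over all refits its adjusted p ran up to 0.678.

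All 3 quinone and epoxide enzymes had negative estimates, 2 of them called, where 13.0% of all genes tested were lower. Nqo2 (ENSMUSG00000046949), a quinone reductase that uses dihydronicotinamide riboside, was at 88.1, 102, 104 and 103 CPM in controls. In LPS samples it was at 24.3, 26.9 and 30.8 CPM, 3.64-fold lower by the fit, and control replicate 1 was the lowest control (log2 fold change -1.86, SE 0.15, adjusted p = 1.52e-06). Ephx1 (ENSMUSG00000038776), the microsomal epoxide hydrolase, was at 274, 290.4, 507 and 403 CPM in controls and 144, 142 and 148 CPM in LPS samples. Control replicates 3 and 4 were the high samples, the LPS samples were close together, and the groups were separate (log2 fold change -1.35, SE 0.21, adjusted p = 4.38e-04). Nqo1 (ENSMUSG00000003849), the quinone reductase often read as a marker of Nrf2 activity, was low throughout. Its level was 2.41, 4.29, 4.09 and 7.79 CPM in controls and 2.77, 2.06 and 1.43 CPM after LPS. Control replicate 1 lay below LPS replicate 1, the groups overlapped, and the test missed the threshold (log2 fold change -1.15, SE 0.42, adjusted p = 0.0589). Without control replicates 1 and 2, a check chosen after seeing the data, adjusted p was 0.0248, and it was 0.0370 in DESeq2; over all alternatives it ran from 0.0176 to 0.310.

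Glutathione supply had 6 members, of which 5 were tested, and both subunits of glutamate-cysteine ligase fell. Gclc (ENSMUSG00000032350), the catalytic subunit, was at 383, 336, 637 and 383 CPM in controls and 84.9, 96.6 and 84.2 CPM in LPS samples. Every LPS sample was far under the lowest control, and control replicate 3 stood above the other controls. The fit gave a level 4.91-fold lower (log2 fold change -2.29, SE 0.22, adjusted p = 8.97e-06). Gclm (ENSMUSG00000028124), the modifier subunit, was at 242, 206, 294 and 267 CPM in controls and 180.3, 147 and 145 CPM in LPS samples. The groups did not overlap, LPS replicate 1 being nearest to the controls, and the fall was smaller than that of Gclc (log2 fold change -0.68, SE 0.16, adjusted p = 0.00794). Its call was kept in 14 of 17 refits, with adjusted p up to 0.0568; it was lost without LPS replicate 2, without LPS replicate 3 and with these 2 libraries summed. Gss, the second enzyme of synthesis, Gsr, the reductase that recycles glutathione, and Ggt1, which breaks down extracellular glutathione, were not called. Ggt1 had 3.18 CPM in control replicate 1 and no more than 1.04 CPM in any other sample. Slc7a11 (ENSMUSG00000027737), the light chain of the cystine importer, failed the filter. It had 1 count over the 4 controls and 33 counts over the 3 LPS samples, a ratio of 41.5 after scaling with a 95% exact interval from counting error of 6.95 to 1690.0. DESeq2, run without this filter, gave it an adjusted p of 0.00472, and edgeR with no filter on low counts gave 0.0104. Slc7a11 entered these fits through the LPS samples alone, which fixes its direction. The edgeR fit with no filter also used a fully pooled spread trend, which carries no spread of this gene. No support is read from these p-values.

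Glutathione peroxidases, microsomal glutathione transferases and the selenium carrier made up 9 members, 8 of them tested, with 1 called higher and 2 lower. Among all genes tested, 13.3% were higher and 13.0% lower. Gpx1 (ENSMUSG00000063856), the abundant selenium-dependent enzyme of cytosol and mitochondria, was at 860.0, 1070.1, 791 and 668 CPM in controls and 316, 466 and 441 CPM in LPS samples. Every LPS sample was below every control, the lowest being LPS replicate 1 (log2 fold change -1.06, SE 0.20, adjusted p = 0.00177). Gpx3 (ENSMUSG00000018339), the glutathione peroxidase secreted into plasma, moved the other way. It was at 34.5, 6.31, 8.49 and 5.13 CPM in controls and 89.9, 53.4 and 44.4 CPM in LPS samples. Control replicate 1 was far above the other controls but under every LPS sample, and LPS replicate 1 was the highest (log2 fold change 2.22, SE 0.53, adjusted p = 0.00835). Without control replicate 1 the log2 fold change was 3.24 with an adjusted p of 4.44e-06. Over all alternatives adjusted p ran from 2.13e-33, with no filter on low counts, to 0.0469, without control replicates 3 and 4. The fit with no filter used a fully pooled spread trend, so its p-value carries no spread of Gpx3 itself. In control replicate 1 the summed cholangiocyte markers were 282 CPM against 89.2 to 135 CPM in the other controls. That library was also the highest control for stellate, erythroid and neutrophil sums (476, 308 and 5.24 CPM) and for mitochondrial share (23.7%). Its hepatocyte and acute phase sums were the lowest of the controls, and its macrophage and endothelial sums lay within the range of the others. The part of any of these in the Gpx3 level was not tested. Mgst3 (ENSMUSG00000026688), a microsomal glutathione transferase of low level, was at 8.63, 8.14, 5.01 and 7.02 CPM in controls and 1.61, 0.773 and 0.934 CPM after LPS. The groups were far apart for a gene of this level, at 6.35-fold lower (log2 fold change -2.67, SE 0.35, adjusted p = 1.26e-04).

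Selenop (ENSMUSG00000064373), the selenium carrier that liver secretes into plasma, was at 2813, 3466, 6003 and 5306 CPM in controls and 3898, 4229 and 3991 CPM in LPS samples. All LPS samples lay between control replicates 1 and 2 on the low side and control replicates 3 and 4 on the high side, and the gene was not called (log2 fold change -0.12, SE 0.25, adjusted p = 0.767). Left out in pairs after seeing the data, the controls gave opposite signs: the log2 fold change was -0.50 (adjusted p = 0.0349) without replicates 1 and 2, and 0.38 (adjusted p = 0.125) without replicates 3 and 4. Mgst1 was at 6518, 5714, 4360.5 and 4103 CPM in controls and 3414, 3677 and 3654 CPM in LPS samples, separate groups that missed the threshold (log2 fold change -0.53, SE 0.20, adjusted p = 0.0714). It passed without control replicates 3 and 4 (adjusted p = 0.00726) and did not without control replicates 1 and 2 (adjusted p = 0.231). Over all alternatives its adjusted p ran from 0.00726 to 0.231. Gpx4, which reduces lipid peroxides in membranes, and the endoplasmic reticulum enzymes Gpx7 and Gpx8 were not called. Gpx4 was called lower without control replicates 3 and 4 (log2 fold change -0.44, adjusted p = 0.0261) and had an estimate of 0.19 without control replicates 1 and 2 (adjusted p = 0.293, and up to 0.870 over all refits). Mgst2 had 6 counts over the controls and 4 over the LPS samples and was not tested.

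**Figure D2:**
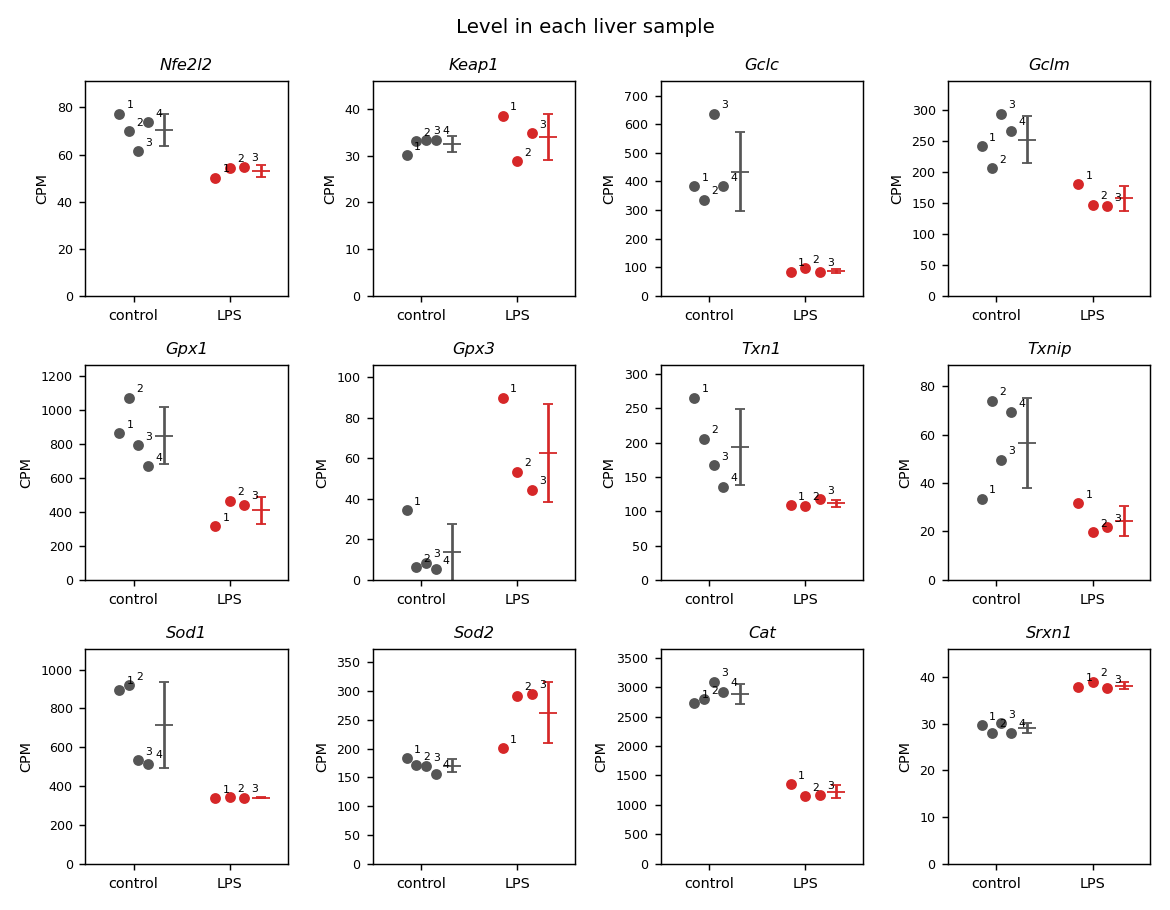
Level in CPM of 12 members in each of 4 control and 3 LPS liver samples, with replicate numbers beside the points. Bars show the mean and SD; Gpx3, Sod2 and Srxn1 are higher in every LPS sample than in any control, Keap1 overlaps, and the other 8 genes are lower in every LPS sample.

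The 6 peroxiredoxins and their repair enzyme divided into 2 called lower, 1 called higher and 4 not called. Beside these counts, 13.0% of all genes tested were lower and 13.3% higher. Prdx4 (ENSMUSG00000025289), the peroxiredoxin of the endoplasmic reticulum, was at 138, 132, 118 and 103 CPM in controls and 52.4, 63.5 and 62.4 CPM in LPS samples. All LPS samples were well under the lowest control, replicate 4 (log2 fold change -1.05, SE 0.15, adjusted p = 2.71e-04). Prdx6 (ENSMUSG00000026701), the cytosolic enzyme with 1 active cysteine, was at 440.2, 496, 451 and 414 CPM in controls and 314, 318 and 311 CPM in LPS samples. The LPS samples were almost equal and under every control (log2 fold change -0.52, SE 0.14, adjusted p = 0.0139), and the call was lost without LPS replicate 2, without LPS replicate 3 and with these 2 summed, and kept in 14 of 17 refits, with adjusted p up to 0.0740. Srxn1 (ENSMUSG00000032802), sulfiredoxin, which repairs over-oxidised peroxiredoxins, was at 29.6, 28.0, 30.1 and 28.1 CPM in controls and 37.9, 39.0 and 37.5 CPM in LPS samples. The spread in each group was small and the groups were separate, at 1.32-fold (log2 fold change 0.40, SE 0.13, adjusted p = 0.0352). The Srxn1 call held only without control replicate 1 or control replicate 3 among the 7 fits that left out a library, where adjusted p ran from 0.0354 to 0.130. In all, it was kept in 7 of 17 refits, with adjusted p up to 0.214. Prdx1, Prdx2, Prdx3 and Prdx5 had log2 fold changes from -0.21 for Prdx5 to 0.12 for Prdx3, and their groups overlapped. Prdx5 was called lower without control replicates 3 and 4 (log2 fold change -0.51, adjusted p = 0.0160) and had an estimate of 0.20 without control replicates 1 and 2 (adjusted p = 0.240, and up to 0.946 over all refits).

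Thioredoxins, glutaredoxins and methionine sulfoxide reductases numbered 11, of which 4 were called lower, 1 higher and 6 not called. The shares over all genes tested were 13.0% lower and 13.3% higher. Txn1 (ENSMUSG00000028367), the cytosolic thioredoxin, was at 265, 205, 167 and 136 CPM in controls and 109, 108 and 118 CPM in LPS samples. Control replicates 1 and 2 were the high samples, and the LPS samples lay under all controls (log2 fold change -0.79, SE 0.20, adjusted p = 0.0120). The call was lost without LPS replicate 2 (adjusted p = 0.0570, the largest of the alternatives that left out 1 library, down to 0.00371) and with LPS replicates 2 and 3 summed (adjusted p = 0.0506). Txnip (ENSMUSG00000038393), which binds and inhibits thioredoxin, was at 33.5, 74.0, 49.6 and 69.4 CPM in controls and 31.6, 19.7 and 21.9 CPM in LPS samples. Control replicate 1 was only just above LPS replicate 1, so the groups were separate by a narrow gap (log2 fold change -1.21, SE 0.26, adjusted p = 0.00432). Msra (ENSMUSG00000054733), which reduces oxidised methionine, was at 141, 138, 139.6 and 119 CPM in controls and 77.4, 78.4 and 85.8 CPM in LPS samples. Control replicate 4 was the lowest control and still above every LPS sample (log2 fold change -0.74, SE 0.13, adjusted p = 0.00139).

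Txnrd3 (ENSMUSG00000000811), a thioredoxin-glutathione reductase of low level, was at 4.95, 5.87, 7.27 and 7.69 CPM in controls and 2.30, 4.57 and 3.61 CPM in LPS samples. LPS replicate 2 was close to control replicate 1, and adjusted p was near the threshold (log2 fold change -0.89, SE 0.30, adjusted p = 0.0436). Of the 7 fits that left out 1 library, 2 kept the call, those without control replicate 1 and without LPS replicate 2, with adjusted p from 0.0302 to 0.142. In all, its call was kept in 9 of 17 refits, with adjusted p up to 0.219. Txnrd1 (ENSMUSG00000020250), the cytosolic thioredoxin reductase and an Nrf2 target, was at 76.5, 76.0, 129.9 and 93.8 CPM in controls and 87.0, 98.5 and 112 CPM in LPS samples. The groups overlapped, control replicate 3 was the highest sample, and the gene was not called (log2 fold change 0.074, SE 0.19, adjusted p = 0.820). Without scaling factors its sign turned (log2 fold change -0.058). Glrx, the cytosolic glutaredoxin, named after its values were seen because it completes the called members, was at 20.7, 27.4, 20.3 and 18.0 CPM in controls and 31.1, 30.5 and 33.5 CPM in LPS samples. All LPS samples were above control replicate 2, the highest control (log2 fold change 0.56, SE 0.16, adjusted p = 0.0235). The Glrx call was kept in 10 of 17 refits, with adjusted p up to 0.0970. It was lost when control replicate 4, LPS replicate 2, LPS replicate 3 or control replicates 3 and 4 were left out, with LPS replicates 2 and 3 summed, with the replicate block and without scaling factors. The mitochondrial genes Txn2, Txnrd2, Glrx2 and Glrx5 were not called, and neither was Msrb1, a selenoprotein that reduces the other methionine sulfoxide form.

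Superoxide dismutases turn superoxide into hydrogen peroxide, and catalase splits that peroxide in peroxisomes. Sod1 (ENSMUSG00000022982), the copper and zinc enzyme, was at 896, 921, 535 and 515 CPM in controls and 339, 344 and 341 CPM in LPS samples. Control replicates 1 and 2 stood well above control replicates 3 and 4, and the 3 LPS samples were close together below them all (log2 fold change -1.07, SE 0.22, adjusted p = 0.00335). Leaving out the higher pair of controls after seeing the data gave a log2 fold change of -0.64 (adjusted p = 0.00298), and leaving out the lower pair gave -1.39 (adjusted p = 4.30e-05). Adjusted p of Sod1 over all alternatives ran from 2.23e-07 to 0.0213. Sod2 (ENSMUSG00000006818), the manganese enzyme of mitochondria, was at 183, 172, 169.8 and 156 CPM in controls and 201, 292 and 295 CPM in LPS samples. LPS replicates 2 and 3 were high, and LPS replicate 1 was nearer to the controls (log2 fold change 0.63, SE 0.16, adjusted p = 0.0118). The Sod2 call was kept in 14 of 17 refits, with adjusted p up to 0.0758; it was lost without LPS replicate 2, without LPS replicate 3 and with these 2 summed. Cat (ENSMUSG00000027187), catalase, was at 2723, 2790.2, 3093 and 2922 CPM in controls and 1349, 1150.5 and 1174 CPM in LPS samples. Each group was compact and the groups were far apart, with LPS levels 2.35-fold lower (log2 fold change -1.23, SE 0.16, adjusted p = 1.15e-04). Sod3, the extracellular dismutase, was not called.

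By compartment, the 17 cytosolic members had 8 called lower and 2 higher, with a median log2 fold change of -0.52, where 13.0% of all genes tested were lower and 13.3% higher. The 6 mitochondrial members had 1 called higher, Sod2, and none lower, with a median of -0.04. Of the 3 secreted members, 1 was higher, Gpx3, and the median was 0.23. Members of the endoplasmic reticulum, 6 tested of 7, had 3 called lower, namely Ephx1, Mgst3 and Prdx4, and a median of -0.86. Those found in both cytosol and mitochondria had 2 lower of 5, Gpx1 and Msra, with a median of -0.21. Of the 5 nuclear members, 1 was lower, Nfe2l2. Cat is the 1 peroxisomal member, and of the 2 members of the plasma membrane only Ggt1 was tested. The median over all genes tested was -0.01. Summed levels of the cytosolic members were 3728, 3984, 4109 and 3495 CPM in controls and 2428, 2691 and 2720.4 CPM in LPS samples, groups that did not overlap, with Prdx1 the most abundant in the mean of either group. For the mitochondrial members the sums were 455, 473, 428 and 424 CPM in controls and 430.0, 587 and 585 CPM in LPS samples, which overlapped, with Sod2 the most abundant. The secreted members, of which Selenop was the most abundant, summed to 2869.7, 3488, 6021 and 5327 CPM in controls and 4015, 4297 and 4050.0 CPM in LPS samples, also overlapping. Differences between compartments were not tested. Unscaled totals gave Prdx3 and Txn2 of the mitochondrial members estimates of the opposite sign.

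Ratios of 2 members counted in the same library do not depend on the scaling between libraries. Since they are ratios of counts, their absolute size also carries the lengths of the 2 genes, and only differences between groups are compared. In all, 8 such log2 ratios were compared by a two-sided exact permutation test over all 35 splits of 4 against 3, whose smallest p is 0.0286. Over 8 ratios, an adjusted p below 0.05 would need at least 5 of them at that smallest p, so the adjusted values could hardly pass and are given for completeness. The pairs were chosen with earlier results of these data known, so the p-values are descriptive and give no independent support. Gclc over Gclm was 0.66, 0.71, 1.11 and 0.52 in controls and -1.09, -0.61 and -0.78 in LPS samples. Every control was positive and every LPS sample negative, a difference of -1.58 (exact p = 0.0286, adjusted over 8 ratios 0.114). Sod2 over Sod1 was -2.29, -2.42, -1.66 and -1.72 in controls and -0.75, -0.23 and -0.21 in LPS samples. It was higher in all 3 LPS samples than in any control, by 1.62 in the mean (exact p = 0.0286, adjusted 0.114). Gpx3 over Gpx1 was -4.64, -7.40, -6.54 and -7.02 in controls and -1.81, -3.12 and -3.31 in LPS samples. The groups did not overlap, control replicate 1 was the highest control, and the difference was 3.65 (exact p = 0.0571, adjusted 0.152). Overlapping groups were seen for Txnip over Txn1, Txnrd2 over Txnrd1, Keap1 over Nfe2l2, Bach1 over Nfe2l2 and Prdx3 over Prdx1, with differences from -0.45 to 0.46.

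**Figure D3:**
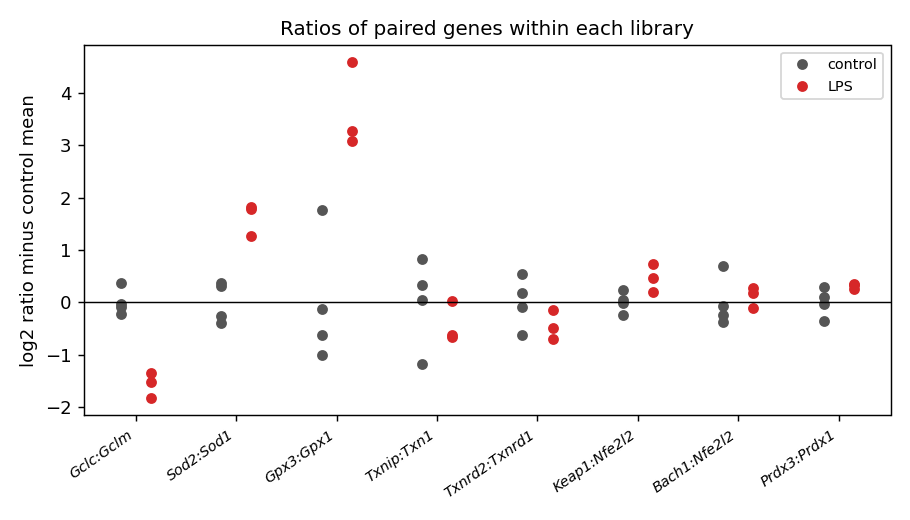
Log2 ratio of 2 members within each library, minus the mean of the controls, for 4 control and 3 LPS samples. Gclc:Gclm lies below every control in the LPS samples, Sod2:Sod1 and Gpx3:Gpx1 lie above, and the other 5 ratios overlap.

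Other genes of the pathway were counted from lists by function, beside which 13.3% of all genes tested were higher and 13.0% lower. Of 17 further Nrf2 targets, 16 were tested, 10 were lower and 1 was higher, with a median log2 fold change of -0.67. The higher gene was Hmox1, haem oxygenase 1, at 5.80, 7.13, 7.27 and 5.13 CPM in controls and 99.5, 54.8 and 52.4 CPM in LPS samples. Every LPS sample exceeded every control and LPS replicate 1 was the highest (log2 fold change 3.45, SE 0.24, adjusted p = 5.15e-07). Gstm1, a cytosolic glutathione transferase, was at 1148, 1113, 1259 and 1123 CPM in controls and 125, 88.1 and 97.9 CPM in LPS samples. Its groups were widely separate (log2 fold change -3.48, SE 0.18, adjusted p = 4.49e-08). Gsta4, the transferase for the lipid peroxidation product hydroxynonenal, was at 52.3, 73.8, 75.7 and 61.0 CPM in controls and 3.0, 1.42 and 1.31 CPM in LPS samples, 33.4-fold lower (log2 fold change -5.06, SE 0.29, adjusted p = 9.73e-08). Gstm3 fell too (log2 fold change -3.98, SE 0.26, adjusted p = 2.74e-07). The Gstm genes are close paralogues, so the division of reads among them is uncertain.

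Of 10 genes that supply NADPH, 6 were lower and 1 higher. Me1, malic enzyme, was at 209.6 ± 21.0 CPM in controls (SD, n = 4) and 81.0 ± 9.78 CPM in LPS samples (SD, n = 3; log2 fold change -1.37, SE 0.15, adjusted p = 2.76e-05). Tkt, transketolase of the pentose phosphate pathway, had 103 ± 15.9 and 46.8 ± 6.52 CPM (log2 fold change -1.13, SE 0.17, adjusted p = 2.90e-04). Idh1, the cytosolic isocitrate dehydrogenase, had 451 ± 20.6 and 311 ± 34.0 CPM (log2 fold change -0.54, SE 0.14, adjusted p = 0.0135), a call kept in 14 of 17 refits, with adjusted p up to 0.0712. Pgd, which produces NADPH in the same pathway as Tkt, was the higher gene, with 26.9 ± 2.14 CPM in controls and 36.0 ± 2.58 CPM after LPS (log2 fold change 0.42, SE 0.14, adjusted p = 0.0381). The Pgd call was kept in only 6 of 17 refits, with adjusted p up to 0.235. None of these 4 genes had overlapping groups. In other glutathione metabolism, 15 of 16 genes were tested, 4 were higher and 3 lower. Oplah, which returns 5-oxoproline to glutamate, had 45.8 ± 7.62 and 84.8 ± 10.7 CPM (log2 fold change 0.89, SE 0.16, adjusted p = 0.00147). Ggt6, a relative of Ggt1, had 7.68 ± 1.19 and 19.6 ± 2.88 CPM (log2 fold change 1.35, SE 0.19, adjusted p = 1.77e-04). Both glyoxalases, which use glutathione to clear methylglyoxal, were lower. Glo1 had 506 ± 116 and 313 ± 6.27 CPM (log2 fold change -0.69, SE 0.18, adjusted p = 0.0140), and its call was kept in 13 of 17 refits, with adjusted p up to 0.0631. Hagh had 210.2 ± 17.2 and 137 ± 7.86 CPM (log2 fold change -0.62, SE 0.14, adjusted p = 0.00493). Lap3, a leucine aminopeptidase, was lower as well (log2 fold change -0.58, SE 0.15, adjusted p = 0.0120), in 16 of 17 refits, with adjusted p up to 0.0502.

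Among 13 other thiol redox proteins, 3 were lower and 1 higher, 30.8% called in all and near the 26.3% of all genes. Ccs, the chaperone that loads copper into Sod1, was at 197, 185, 151 and 155 CPM in controls and 85.2, 81.9 and 85.0 CPM in LPS samples. Like Sod1, it was lower in every LPS sample than in any control, and control replicates 1 and 2 were its higher controls (log2 fold change -1.03, SE 0.15, adjusted p = 2.15e-04). Msrb2, the mitochondrial methionine sulfoxide reductase, was lower (log2 fold change -1.11, SE 0.24, adjusted p = 0.00490). Msrb3, of the same enzyme family, was higher (log2 fold change 0.74, SE 0.16, adjusted p = 0.00547). Of 8 genes of selenoprotein synthesis, 1 was lower, Sepsecs, which makes the selenocysteine on its transfer RNA (log2 fold change -0.51, SE 0.13, adjusted p = 0.01005), called in 15 of 17 refits, with adjusted p up to 0.0615. Other selenoproteins, 11 tested of 12, gave 2 higher and 1 lower, 27.3% and again near that share. Selenos, a selenoprotein of endoplasmic reticulum protein disposal, was higher (log2 fold change 0.98, SE 0.16, adjusted p = 7.29e-04). Selenok, which acts in the same compartment, was higher too (log2 fold change 0.60, SE 0.19, adjusted p = 0.0305), but its call was kept in 8 of 17 refits, with adjusted p up to 0.0986. Dio1, the liver deiodinase, was lower (log2 fold change -1.30, SE 0.25, adjusted p = 0.00176).

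Relatives of Nrf2 and genes of its turnover, 9 tested of 10, gave 2 higher and 1 lower, 33.3% called against 26.3% of all genes. Bach2 was at 12.0, 11.2, 9.04 and 6.77 CPM in controls and 0.599, 2.06 and 1.99 CPM in LPS samples, with separate groups (log2 fold change -2.68, SE 0.40, adjusted p = 2.98e-04). Nfe2l1, a related factor, was higher with an adjusted p near the threshold (log2 fold change 0.46, SE 0.16, adjusted p = 0.0464) and kept its call in 8 of 17 refits, with adjusted p up to 0.205. Nfe2, known from blood cells, was higher although LPS replicate 1 overlapped the controls (log2 fold change 2.54, SE 0.68, adjusted p = 0.0153), and its call was kept in 10 of 15 refits, with adjusted p up to 0.120. Sources of superoxide and nitric oxide, 8 tested of 10, gave 6 higher and 1 lower, with a median log2 fold change of 1.99. Of the higher genes, Ncf4 passed the filter on low counts through the LPS samples alone. The Ncf4 call was kept in 14 of 16 refits, with adjusted p up to 0.0550. Cybb, the catalytic subunit of the phagocyte NADPH oxidase, was at 9.13, 8.65, 9.04 and 4.89 CPM in controls and 33.7, 33.0 and 26.7 CPM in LPS samples. All LPS samples were above all controls (log2 fold change 1.98, SE 0.21, adjusted p = 2.29e-05). Ncf1, a cytosolic partner of the oxidase, was at 3.96, 3.91, 2.32 and 3.77 CPM in controls and 25.0, 14.6 and 15.8 CPM in LPS samples (log2 fold change 2.41, SE 0.25, adjusted p = 1.89e-05). For Rac2, its GTPase partner, LPS replicate 1 was again the highest sample (log2 fold change 2.49, SE 0.36, adjusted p = 2.27e-04). Nox4, an NADPH oxidase that is not restricted to phagocytes, was lower, with LPS replicate 1 nearest to the controls (log2 fold change -2.02, SE 0.37, adjusted p = 0.00151). The Nox4 estimate ran from -2.84 to -1.65 over all refits. Over all these pathway lists, 27 of 43 called genes kept their call in every refit that tested them; among the NADPH genes 2 of 7 did, Me1 and Tkt.

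Markers of several other cell types moved along with these genes, and their part in the results was not tested. Beside the counts of marker calls, here and in the next paragraph, 13.3% of all genes tested were higher and 13.0% lower. Of 10 neutrophil markers, 8 were tested. Of these, 6 passed the filter on low counts through the LPS samples alone, which fixes their direction, so no count of calls is read from this list; S100a9 and Csf3r passed in both groups and were higher. The list was led in level by Csf3r in controls and S100a9 after LPS. Its 10 genes summed to 5.24, 4.04, 1.65 and 2.95 CPM in controls and 217, 159.7 and 159.7 CPM in LPS samples, and Ly6g and Ngp were at 0 in every control. Of 10 macrophage markers, 4 were higher, Adgre1, Cd68, Marco and Ly6c2, and 1 was lower, Clec4f; Ly6c2 passed the filter through the LPS samples alone. Their sums were 89.2, 129.5, 115 and 83.8 CPM in controls and 554, 124 and 122 CPM in LPS samples, with Clec4f the most abundant in every control and Marco in every LPS sample. LPS replicate 1, with 409.7 CPM of Marco, was far above the rest. The 8 acute phase genes of hepatocytes were all higher, with sums of 7052, 9119, 11175 and 8696 CPM in controls and 103542, 147558 and 153553 CPM in LPS samples, Fga being the most abundant in the mean of either group. Erythroid markers, 5 tested of 7, gave 4 lower, with Hbb-bs the most abundant in the mean of either group. Only Alas2 of these kept its call in every refit: Hba-a1 and Hbb-bs, the latter with overlapping groups, kept theirs in 8 of 17 and 8 of 17 refits (adjusted p up to 0.147 and 0.207), and Hbb-bt in 14 of 17 (up to 0.0686). Erythroid sums were 308, 183, 233 and 179 CPM in controls and 137, 53.9 and 53.8 CPM in LPS samples. None of the macrophage, acute phase or erythroid markers was at 0 in every control.

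Stellate cell markers gave 3 lower of 8, Reln, Lrat and Colec11, with Dcn the most abundant and sums of 476, 331, 206 and 326 CPM in controls and 285, 244 and 231 CPM in LPS samples. Lrat kept its call in 13 of 17 refits. Endothelial markers gave 2 higher and 2 lower of 8, Clec4g having passed the filter through the controls alone and Kdr keeping its call in 12 of 17 refits, with no single leading gene among the controls, Pecam1 the most abundant in every LPS sample, and sums of 116, 152, 98.3 and 132 CPM in controls and 158, 83.8 and 82.3 CPM after LPS. Cholangiocyte markers gave 1 higher of 6, Sox9, with Spp1 the most abundant. Their sums were 282, 124, 89.2 and 135 CPM in controls, the first of these the high one, and 151, 181 and 173 CPM in LPS samples. Of the hepatocyte markers, 3 were higher, Fgb, Hnf4a and Tat, and 3 were lower, Alb, Apoa1 and Ttr; Hnf4a, Alb and Apoa1 kept their calls in 14 of 17, 14 of 17 and 13 of 17 refits.

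Promoters from RefSeq on GRCm38.p6, reaching from 250 bases before the transcript start to 50 bases after it, were matched by symbol for 41 of the 46 members. They were searched on both strands for the core of the antioxidant response element, TGACNNNGC, which shares its first letters with sites of the AP-1 family. A match in at least 1 promoter was found for 11 of the 41 members (26.8%), and for 3781 of all 27025 genes with such a promoter (14.0%). Genes with several promoters have more chances of a match, and sites outside this window were not searched. Members with a match were Nfe2l2, Srxn1, Gclm, Prdx1, Mafk, Mgst1, Ggt1, Txnrd1, Mafg, Maff and Sod1. Of these 11, Nfe2l2, Gclm and Sod1 were lower in LPS, Srxn1 was higher, and 7 were not called. The share called was 36.4%, against 42.9% of the 28 tested members without a match and 26.3% of all genes tested, so nothing is read from it. The matches of the 4 called members are shown with those of Prdx1 and Txnrd1, which were not called, so that the core can be compared between members that moved and members that did not pass the test. Each is written 5′ to 3′ on the strand of the gene, with the core or its reverse complement GCNNNGTCA in capitals.
Gclm, chr3:122245415-122245439, plus strand: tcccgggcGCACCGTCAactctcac
Sod1, chr16:90220698-90220722, plus strand: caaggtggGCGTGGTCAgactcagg
Nfe2l2, chr2:75704887-75704911, minus strand: agcccaccTGACTCCGCcatgcccc
Srxn1, chr2:152105544-152105568, plus strand: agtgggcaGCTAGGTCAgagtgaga
Prdx1, chr4:116685458-116685482, plus strand: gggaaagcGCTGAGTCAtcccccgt
Txnrd1, chr10:82859106-82859130, plus strand: ggatttttGCTTTGTCAttctgaca
The first base of the core lay 134 bases before the start in Gclm, 133 in Prdx1, 92 in Txnrd1, 56 in Sod1 and 240 in Nfe2l2. In Srxn1 it was base 29 of the transcribed part. A match is a description of these letters and not of binding.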

How the data were processed

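The deposited table held raw read counts per gene, which the authors made for 7 liver libraries; the submitters' processing notes name cutadapt 1.9.1, HISAT2 2.2.1, HTSeq 0.6.1, DESeq2 1.34.0 and GRCm39. Libraries were strand-specific; how strand was used in counting is not given in the sources used here. Counts were tested with edgeR 4.0.16 in R 4.3.3 (filterByExpr, TMM factors, quasi-likelihood F test, LPS minus control, no covariate), with Benjamini-Hochberg adjustment over 13683 genes. DESeq2 1.42.0 and other scalings, filters and sample sets were alternatives. The code was tested on simulated counts. Ratios used counts plus 0.5. Exon lengths came from GENCODE M21 on GRCm38, for 46 of 46 members. Detection floors (3 counts) lay between 0.138 and 0.212 CPM per library; intervals and floors cover counting error only. Members, lists and ratios were chosen with earlier results of these data known. Values in every sample are given for up to 4 called members with the largest change in each role group and for Nfe2l2, Keap1, Nqo1, Gclc, Gclm, Txnrd1, Srxn1, Sod1, Sod2, Cat, Gpx1, Gpx3 and Selenop; Mgst1 and Glrx were added after their values were seen. From each pathway list up to 3 called genes with the smallest p, up to 2 of the opposite direction, and Hmox1 are named. The hepatocyte marker Tf was not analysed here.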

Additional observations from a re-analysis of the deposited data

Results flagged for a closer look

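In 10 of 81 sets of control values checked, 1 control sample lay far from the other 3; chance does this in about 1 in 20 sets. That rate does not hold for Slc7a11 and Mgst2, where a few counts stand against 0 or 1. Gpx3 was at 34.5 CPM in control replicate 1 against 5.13 to 8.49 CPM in the other controls. The same replicate was low for Keap1, at 30.1 CPM against 33.1 to 33.5 CPM, and for Nqo2, at 88.1 CPM against 102 to 104 CPM. Mgst2 was at 0.354 CPM there and at most 0.0484 CPM elsewhere among controls. Control replicate 2 had 26.8 CPM of Txnrd2 against 20.4 to 21.4 CPM, and the only Slc7a11 signal of the controls, 0.0631 CPM or 1 count. In control replicate 3, Gclc reached 637 CPM against 336 to 383 CPM, and Ncf1 was 2.32 CPM against 3.77 to 3.96 CPM. Control replicate 4 was low for Msra, at 119 CPM against 138 to 141 CPM, and for Cybb, at 4.89 CPM against 8.65 to 9.13 CPM.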

How the results depend on the processing

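Of the 19 called members, 11 kept direction and call in all 17 refits: Nqo2, Ephx1, Gclc, Gpx1, Mgst3, Prdx4, Txnip, Msra, Sod1 and Cat (lower) and Gpx3 (higher). The other 8 lost the call in at least 1 refit. The 4 higher members became 2 without scaling factors, which moved the median of all genes by -0.12 on the log2 scale, 2 with LPS replicates 2 and 3 summed, where Gpx3 remained and Slc7a11 was added, 1 at an adjusted p below 0.01, 1 with the added fold rule, and 1 to 4 when single libraries were left out. The 15 lower members became 9 with the fold rule and 10 with LPS replicates 2 and 3 summed, where 1348 of all genes were higher and 1195 lower. Over all genes, 1068 were higher and 1000 lower with the fold rule, and 1091 and 993 at an adjusted p below 0.01; calls lower ran from 1146 to 1868 when single libraries were left out. With no filter on low counts edgeR used 1 fully pooled spread trend, so its p-values there carry no gene's own spread. DESeq2 called 5 members higher, Slc7a11 being the added one, and 18 lower. Deviations of same-numbered libraries correlated at 0.205, -0.06 and 0.08. Differently numbered libraries were not compared, so these values cannot decide whether replicate numbers paired the samples. The replicate block gave 2 members higher and 13 lower and Selenop a log2 fold change of 0.059. Members first not called passed as lower in some refits: Ggt1 without control replicate 2 (adjusted p = 0.0498), with no filter and in DESeq2; Glrx2 without control replicate 1 (0.0382), with at least 10 counts in every sample and without scaling factors; Maff without LPS replicate 1 (0.0344); Nqo1 without control replicate 1 (0.0201), without control replicates 1 and 2, with no filter and in DESeq2; Mgst1 without control replicate 4 (0.0482), without control replicates 3 and 4, without scaling factors and in DESeq2; Gpx4 and Prdx5 without control replicates 3 and 4; and Selenop without control replicates 1 and 2. Reversed signs were limited to members not called in either fit, and 1 ratio. Without scaling factors, log2 fold changes were -0.043 for Keap1, -0.087 for Gsr, -0.014 for Prdx3, -0.084 for Txn2 and -0.058 for Txnrd1; with LPS replicates 2 and 3 summed, -0.0075 for Txn2. Chosen after seeing the data, the fit without control replicates 1 and 2 gave -0.14 for Gsr, 0.19 for Gpx4, 0.29 for Gpx7, 0.51 for Gpx8, 0.083 for Prdx2, 0.20 for Prdx5, -0.19 for Txnrd1 and 0.0052 for Glrx5, and the fit without control replicates 3 and 4 gave 0.011 for Gss, 0.38 for Selenop, -0.024 for Txn2 and -0.0082 for Sod3. These fits called 4 members higher and 16 lower, and 4 higher and 17 lower; in each, 3 of the first 4 higher members remained and Slc7a11 was added (adjusted p = 0.0163 and 0.0350), Srxn1 being lost in the first and Glrx in the other. Slc7a11 was also added with no filter, where Srxn1 was lost, and with LPS replicates 2 and 3 summed (0.0167); with 1 count over the controls, it entered these fits through the LPS samples. Leaving out single libraries gave ranges of -0.029 to 0.18 for Keap1, -0.15 to 0.040 for Mafg, -0.28 to 0.038 for Gss, -0.039 to 0.14 for Gsr, -0.29 to 0.061 for Selenop, -0.031 to 0.17 for Txn2, -0.030 to 0.27 for Txnrd1 and -0.12 to 0.45 for Sod3, and -0.018 to 0.34 for the Bach1 to Nfe2l2 ratio. The cause of these changes was not tested. Members under about 1 CPM, such as Slc7a11 and Mgst2, were limited by depth.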
